A study of Homo sapiens with 4 samples.

Results

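Zinc finger genes named ZNF that lie outside chromosome 19 were examined for chromatin occupancy by TRIM28 and TRIM24 in LNCaP, an androgen-responsive prostate cancer cell line. A gene was a member when it was protein-coding in the GENCODE annotation of GRCh37, lay on chromosomes 1 to 18, 20 to 22 or X, carried a symbol of ZNF followed by a digit, and was not among 7 genes of a chromosome 16 run that were left out (ZNF75A, ZNF174, ZNF200, ZNF263, ZNF597, ZNF213 and ZNF205). This gave 259 members of 20098 protein-coding genes on chromosomes 1 to 22 and X, spread over 20 chromosomes. The rule used no measured value. The remaining genes were 249 ZNF genes of chromosome 19, the 7 genes left out and 19583 other genes.

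The study measured where both proteins sit on chromatin with and without androgen, using ChIP-seq, in which fragments of DNA held by a protein are pulled down with an antibody and sequenced. All 4 samples were LNCaP cells labelled as wild type and kept for 3 days in 5% charcoal-stripped serum, which is low in steroid hormones. Cells then received ethanol, the vehicle, or 10 nM R1881, a synthetic androgen, for 16 h. TRIM24 was pulled down through an HA tag from cells that stably express HA-TRIM24, so the TRIM24 samples report a tagged, added protein. TRIM28 was pulled down with an antibody to TRIM28 itself. The sample labels describe the TRIM28 cells as LNCaP without mention of the tagged protein, whereas the study's text places both pull-downs in HA-TRIM24 cells. There was 1 sample for each protein and condition, so no comparison between conditions has a replicate check. The intervals given here are 95% Wilson intervals over genes or sites and cover the sampling of genes or sites alone.

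The deposited lists held 34574 TRIM28 sites with R1881 and 58201 with ethanol, and 9363 and 5232 TRIM24 sites, respectively. The depths were 14231181 tags for TRIM28 with R1881, 25145171 for TRIM28 with ethanol, 12884097 for TRIM24 with R1881 and 11606880 for TRIM24 with ethanol. Between 1.36% and 4.95% of the tags of a sample lay in its sites. The recorded peak-calling command named no input library. For both proteins the deeper sample had the longer list, which was the ethanol sample for TRIM28 and the R1881 sample for TRIM24, and the part of depth in differences between conditions was not tested. Site strength is given as normalized tags, meaning tags in the site per 10000000 tags of the sample.

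TRIM28, also called KAP1, is a corepressor without a DNA-binding domain of its own. It is brought to DNA mainly by zinc finger proteins that carry a KRAB box, and it recruits the histone methyltransferase SETDB1 and HP1 proteins, which build H3K9me3 heterochromatin. The genes of this zinc finger family are themselves known places of TRIM28 and H3K9me3 at their 3′ ends. In most of them 1 long last coding exon encodes the whole array of C2H2 fingers, in which each finger is joined to the next by a conserved linker. TRIM24 is a related TRIM family protein that acts as a cofactor of nuclear receptors, the androgen receptor among them.

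The sequences below are the parts of 7 last coding exons under strong TRIM28 sites of the R1881 sample. They are shown because they carry the repeated finger code on which most exon sites lay. All are GRCh37, 157 bases long, wholly coding, and written 5′ to 3′ on the coding strand of the gene. Capitals mark letters that encode the Glu-Lys-Pro part of a finger linker, in any of the spellings GAGAAACC, GAGAAGCC, GAAAAACC and GAAAAGCC. The places are chr7:6730807-6730963, minus strand, for ZNF12; chr1:247150505-247150661, minus strand, for ZNF695; chr2:95815272-95815428, minus strand, for ZNF514; chr7:99668883-99669039, minus strand, for ZNF3; chr4:436556-436712, minus strand, for ZNF721; chr12:133634991-133635147, plus strand, for ZNF84; and chr9:114304767-114304923, plus strand, for ZNF483.
ZNF12: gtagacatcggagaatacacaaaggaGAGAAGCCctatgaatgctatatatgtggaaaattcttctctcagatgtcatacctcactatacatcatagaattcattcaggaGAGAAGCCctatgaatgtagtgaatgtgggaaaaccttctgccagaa
ZNF695: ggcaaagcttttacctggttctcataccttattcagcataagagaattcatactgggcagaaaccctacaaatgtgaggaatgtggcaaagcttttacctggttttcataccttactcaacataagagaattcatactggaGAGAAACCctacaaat
ZNF514: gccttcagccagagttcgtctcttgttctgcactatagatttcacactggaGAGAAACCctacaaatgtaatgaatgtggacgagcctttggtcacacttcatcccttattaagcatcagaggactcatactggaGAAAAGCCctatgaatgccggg
ZNF3: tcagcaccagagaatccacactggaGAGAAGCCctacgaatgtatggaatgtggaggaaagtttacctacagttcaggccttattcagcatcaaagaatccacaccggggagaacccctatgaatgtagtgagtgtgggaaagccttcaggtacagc
ZNF721: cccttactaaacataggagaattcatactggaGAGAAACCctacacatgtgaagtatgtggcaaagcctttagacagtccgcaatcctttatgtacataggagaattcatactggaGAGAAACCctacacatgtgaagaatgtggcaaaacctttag
ZNF84: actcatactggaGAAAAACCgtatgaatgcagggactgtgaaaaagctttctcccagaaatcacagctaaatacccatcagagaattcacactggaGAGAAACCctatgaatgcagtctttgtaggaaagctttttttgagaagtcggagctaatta
ZNF483: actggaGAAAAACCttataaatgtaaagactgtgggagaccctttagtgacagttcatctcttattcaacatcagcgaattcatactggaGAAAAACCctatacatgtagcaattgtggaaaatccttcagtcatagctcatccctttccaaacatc

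TRIM28 occupied the last coding exon of 70 of 259 members with R1881 (27%, interval 22 to 32.7) and of 72 with ethanol (27.8%, 22.7 to 33.5). Over all protein-coding genes the shares were 1.67% and 2.53%. ZNF genes of chromosome 19 had such a site at 79 of 249 genes with R1881 (31.7%, 26.3 to 37.7) and at 90 with ethanol (36.1%, 30.4 to 42.3), so the intervals of both ZNF groups overlapped in each condition. Among the other genes the share was 0.934% with R1881 (183 genes) and 1.76% with ethanol (344 genes). Of genes whose coding part of that exon was at least 1000 bp, 58 of 142 members (40.8%, 33.1 to 49.1), 74 of 218 ZNF genes of chromosome 19 (33.9%, 28.0 to 40.5) and 45 of 1445 other genes (3.11%, 2.34 to 4.14) had a TRIM28 site with R1881. Per megabase of last coding exon there were 279.9 sites at members, 239.9 at ZNF genes of chromosome 19 and 28.3 at other genes.

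TRIM24 had no site in the last coding exon of any member, in either condition, against 0.388% of all protein-coding genes with R1881 and 0.179% with ethanol. A count of 0 of 259 genes allows a share of up to 1.16%, for counting error only, which lies above both background shares. Absence beyond the background could therefore not be shown at this number of genes.

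**Figure D1:**
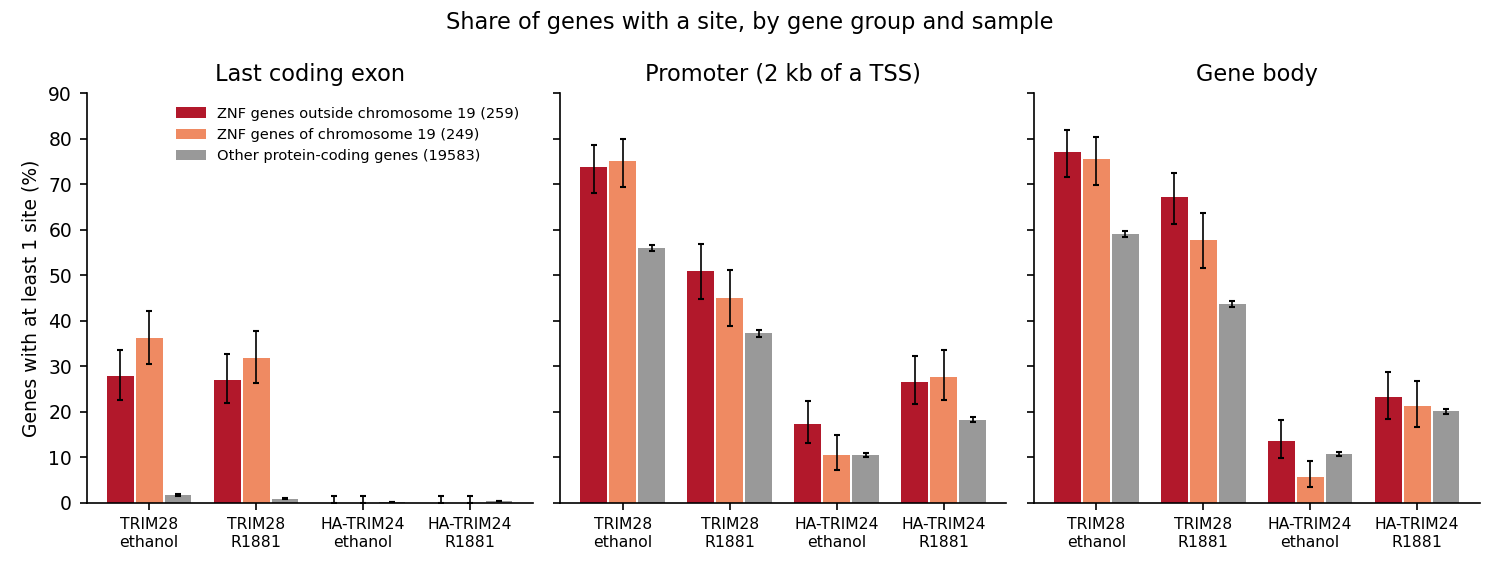
Share of genes with at least 1 site (y axis, percent) in the last coding exon, within 2 kb of a transcription start and in the gene body, for each of the 4 samples (x axis) and 3 gene groups (colours). Bars are shares and whiskers 95% Wilson intervals over genes; in the last coding exon TRIM28 reached 27% of members with R1881 against 0.934% of other genes, and TRIM24 none.

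At promoters, defined as within 2 kb of any annotated transcription start (TSS), TRIM28 lay at 132 members with R1881 (51.0%, 44.9 to 57.0; all genes 37.5%) and 191 with ethanol (73.7%, 68.1 to 78.7; all genes 56.5%). TRIM24 lay at 69 member promoters with R1881 (26.6%, 21.6 to 32.3; all genes 18.5%) and 45 with ethanol (17.4%, 13.2 to 22.5; all genes 10.6%). In gene bodies TRIM28 sites were found in 174 members with R1881 (67.2%; all genes 44.1%) and 200 with ethanol (77.2%; all genes 59.5%). Many of these sites are the exon and promoter sites counted above, and without them 67 members with R1881 and 77 with ethanol remained. This reduced count was not made over all genes, for TRIM28 or for TRIM24 below, so it has no background. TRIM24 sites were found in the bodies of 60 members with R1881 (23.2%, 18.4 to 28.7; all genes 20.2%) and 35 with ethanol (13.5%, 9.88 to 18.2; all genes 10.7%), with the background inside both intervals, and 13 and 4 remained without promoter and exon sites. In both conditions the promoter shares of members were above the background for both proteins, and for TRIM28 by a smaller factor than in last coding exons. ZNF genes of chromosome 19 had TRIM28 promoter shares of 45.0% with R1881 and 75.1% with ethanol, also above the background. Their TRIM24 promoter shares were 27.7% with R1881, much like that of members, and 10.4% with ethanol, near the background. No site of any list was found at 26 members, a count that was not made over all genes and has no background. Among the 26 were ZNF711, an X-linked gene tied to intellectual disability, and ZNF521, a finger-rich regulator of progenitor cells.

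The exon sites were strong among TRIM28 sites. The 83 distinct sites with R1881 had a median of 11.9 normalized tags (interval of the median 10.5 to 13.4, range 5.6 to 40.8), against 7.7 over the whole list. Of these 83, 34 (41.0%) were above 12.6 normalized tags, the 90th percentile of all sites, which 8.82% of all sites exceeded. With ethanol, 88 distinct sites had a median of 10.5 (8.0 to 12.3) against 6.4 in the whole list. Taking the strongest exon site of each gene, medians with R1881 were 11.9 at members and 11.2 at ZNF genes of chromosome 19. With ethanol these medians were 11.5 and 8.9. The 161 member promoter sites that lay outside every ZNF last coding exon had a median of 7.7 with R1881, the value of the whole list. Most members with an exon site had 1 (57 of 70 with R1881), 11 had 2, and ZNF268 and ZNF721 had 3.

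ZNF12, a KRAB repressor with 15 C2H2 fingers, had the strongest exon site, with 40.8 normalized tags with R1881 and 31.4 with ethanol. This site covered fingers 10 to 12, and a weaker R1881 site of 16.2 covered fingers 5 to 7. ZNF12 lacked a TRIM28 promoter site with R1881 but had a TRIM24 promoter site of 10.1 in that condition. ZNF695, with 9 fingers, reached 28.1 with R1881 and 31.0 with ethanol, over fingers 5 to 7. ZNF514 gave nearly equal values of 25.3 and 25.1, over fingers 3 to 5 of 7. All 3 encode a KRAB box.

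ZNF286A reached 23.9 normalized tags with R1881 and 29.0 with ethanol, and its site is also counted for the readthrough gene ZNF286A-TBC1D26, which shares the exon. ZNF3 reached 23.9 and 16.7, over its last 3 fingers. ZNF140, a KRAB repressor, reached 23.2 and 23.5. ZNF84 reached 23.2 and 15.5, and ZNF23 reached 22.5 and 18.7. ZNF713 reached 22.5 and 15.9, and ZNF479 reached 21.1 and 22.7. None of these genes was high in 1 condition and without a site in the other.

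In this group, the members without a KRAB box in the longest coding transcript were ZNF721, at 23.2 and 20.7, and ZNF678, at 21.8 and 21.9. ZNF721 encodes 23 fingers and carried its 3 R1881 sites over fingers 5 to 7, 12 to 14 and 20 to 22, with 19.7, 23.2 and 14.8 normalized tags. ZNF268, with 24 fingers and a KRAB box, had 15.5, 22.5 and 12.6 over fingers 2 to 4, 10 to 12 and 16 to 17. In both genes several separate stretches of 1 finger array were called, all well inside the coding part.

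Exon sites were nearly the same genes in both conditions. Of 70 members with a site with R1881, 66 (94.3%) also had one with ethanol, and these were 91.7% of the 72 ethanol members. Among other genes, 135 were shared, which was 73.8% of those with R1881 and 39.2% of those with ethanol. The exon sites of other genes were weaker. The strongest per gene had a median of 7.7 normalized tags with R1881 and 6.4 with ethanol, against 11.9 and 11.5 at members. Shares at equal strength were not counted, so the part of site strength was not tested. The 4 members called with R1881 alone were ZNF165, ZNF362, ZNF510 and ZNF735, and the 6 called with ethanol alone were ZNF157, ZNF33A, ZNF385A, ZNF391, ZNF680 and ZNF727. These 10 genes were named because they are all there are.

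At the level of single sites, 67 of 83 R1881 exon sites (80.7%) overlapped an ethanol site, compared with 62.6% of all TRIM28 R1881 sites, which were weaker at the median. The centres of matched sites lay a median of 34 bp apart. Their log2 ratio of normalized tags, R1881 over ethanol, had a median of 0.14 (interval of the median 0.00 to 0.27), with 41 of 67 above 0 and a range of -0.81 to 1.48. The median over all 21637 matched TRIM28 sites was 0.08, which lies inside that interval. Among 8609 matched sites chosen for tags like those of member exon sites it was 0.22, also inside the interval and above the member median. Since calls in each list need a minimum of tags, ratios of matched sites leave out sites lost in 1 sample.

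The highest ratios were at ZNF248, ZNF483 and ZNF267. ZNF248 had 13.4 normalized tags with R1881 and 4.8 with ethanol, a log2 ratio of 1.48 with an exact counting interval of 0.37 to 2.66. ZNF483, a gene with both a KRAB box and a SCAN domain, had 22.5 and 11.5 (0.97, 0.19 to 1.74). ZNF267 had 11.9 and 6.4 (0.90, -0.17 to 1.99). The lowest were at ZNF75D, with 7.0 and 12.3 (-0.81, -2.0 to 0.26), ZNF892, with 9.8 and 16.3 (-0.73, -1.72 to 0.18), and ZNF594, with 13.4 and 19.5 (-0.54, -1.39 to 0.24). These 6 were picked as extremes of 67, the intervals cover counting error alone, and 4 of the 6 include 0. The ethanol site of ZNF248 held 12 tags, the tag minimum recorded for that sample, where the weakest matched exon sites held 11. The sites at ZNF267, ZNF75D and ZNF594 have near copies elsewhere in GRCh37, a limit described below.

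**Figure D2:**
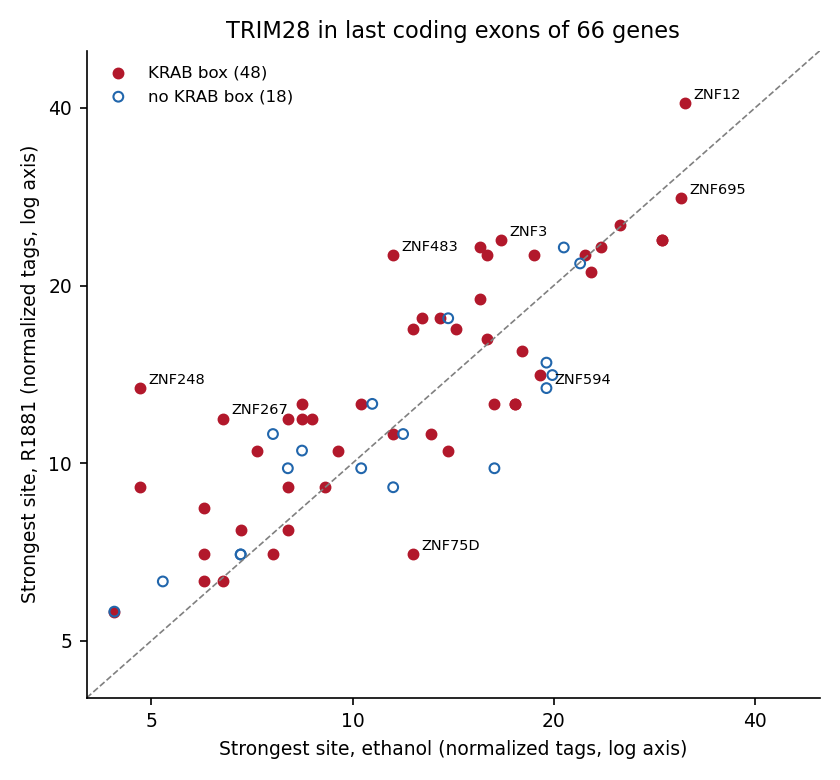
Normalized tags of the highest TRIM28 site of each exon with ethanol (x axis) and R1881 (y axis), both log axes, for the 66 members with such a site in both samples. Filled points encode a KRAB box, open points do not, and the dashed line marks equal values; ZNF12 stood highest at 31.4 with ethanol and 40.8 with R1881, and points scattered to both sides of the line, with ZNF248 above it and ZNF75D below it.

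Within the exon the sites lay towards the 3′ end. Their centres were a median of 433 bp from the end of the coding sequence (quartiles 289.5 and 757.5), at 0.353 of the exon length from that end. In the 3′ 50% of the exon lay 65 of 83 sites. With the exon split into 5 equal lengths from the coding end, there were 20, 29, 23, 10 and 1 sites, fewest next to the start of the exon. Only 6 of 83 lay within 2 kb of a TSS of the same gene.

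At least 1 finger lay under 80 of the 83 sites, with 3 fingers under 47 and 2 under 29. A median of 3.5 fingers lay between the site and the C-terminal end of the array (quartiles 2 and 7), and 6 sites reached the last finger. The 3 sites without a finger were at ZNF143, ZNF718 and ZNF830, named because they are all there are. ZNF143, an activator of small nuclear RNA and other promoters, has only 81 bp of coding sequence in its last exon and its fingers lie in earlier exons. The site at ZNF830 spanned the start of that gene. For ZNF718 the longest coding transcript encodes no finger in this reading frame, although the linker letters were present under its site.

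**Figure D3:**
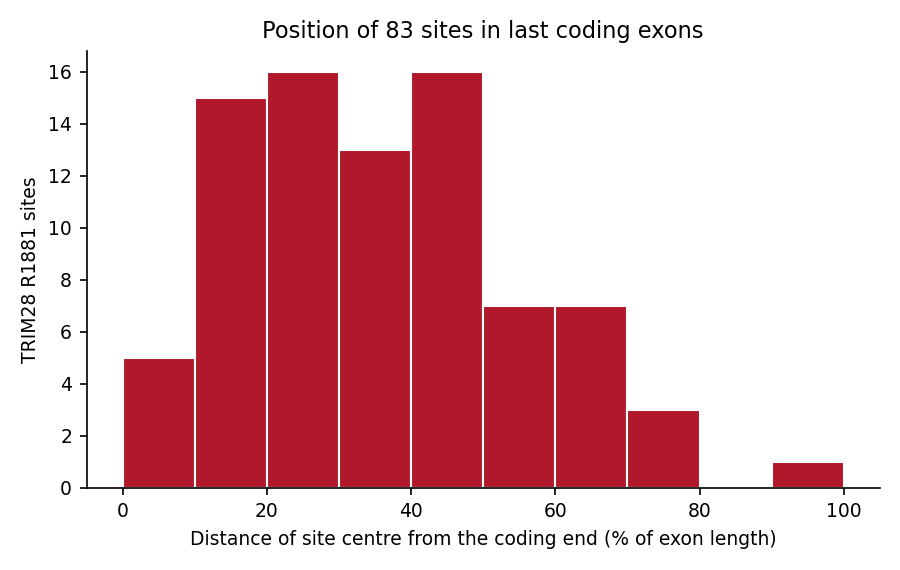
Number of TRIM28 R1881 sites in last coding exons of members (y axis) against the distance of the site centre from the coding end, in percent of the coding length of the exon (x axis, bins of 10%). The exon start is on the right, where sites were few, and 65 of 83 sites lay below 50%.

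The linker letters stood in 71 of 83 exon sites (85.5%, 76.4 to 91.5), on the coding strand, and on either strand in 1186 of 34152 TRIM28 R1881 sites of chromosomes 1 to 22 and X (3.47%). Windows of 157 bp elsewhere in the same exons, clear of TRIM28 sites, held them in 220 of 471 cases (46.7%, 42.3 to 51.2). The gap within the same exons was smaller where only finger-bearing stretches were compared. Among stretches over 2 or more fingers, the letters stood in 69 of 76 sites (90.8%, 82.2 to 95.5), in 177 of 208 site-free windows of the same exons (85.1%, 79.6 to 89.3) and in 324 of 490 windows of member exons without a site (66.1%, 61.8 to 70.2). The intervals for sites and for other finger windows of the same exons overlapped, whereas exons without a site lay lower. The spelling is a description of the code and not a binding site. The GC content of the exon sites had a median of 42.0%, against 40.1% for the exons that hold them, 47.1% for all TRIM28 R1881 sites and 66.9% for member promoter sites.

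The share of members with an exon site was higher where the last coding exon encoded more fingers. With 15 or more fingers there, 15 of 22 members had an R1881 exon site (68.2%, 47.3 to 83.6). With 10 to 14 it was 29 of 75 (38.7%, 28.5 to 50), and with 5 to 9 it was 22 of 60 (36.7%, 25.6 to 49.3). With fewer than 5 fingers in that exon it was 4 of 102 (3.92%, 1.54 to 9.65). An exon with more fingers is in general also longer, and sites per length were not counted for these classes. Finger number and exon length are therefore not separated here. The members with most fingers and no exon site in either condition were ZNF142, ZNF462, ZNF236 and ZNF646, followed by ZNF423 and ZNF521 with equal numbers, with 27 to 36 fingers in the protein but 4 or fewer in the last coding exon. ZNF423, a regulator of neural and fat cell development, has 27 bp of coding sequence in that exon.

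A KRAB box was found in the longest coding transcript of 121 members. Of these, 50 had an R1881 exon site (41.3%, 32.9 to 50.2), compared with 20 of 138 without the box (14.5%, 9.58 to 21.3). The difference was 26.8 percentage points (Newcombe interval 16.0 to 37), and 28.5 with ethanol (17.6 to 38.7). Finger content differed between these classes, so the comparison was repeated among the 157 members with 5 or more fingers in the exon, a choice made after seeing the data. There, 50 of 103 with the box (48.5%) and 16 of 54 without it (29.6%) had a site, a difference of 18.9 points (2.70 to 33.1). With 15 or more fingers in the exon the order turned, with 12 of 18 KRAB members (66.7%) and 3 of 4 others (75%), and the intervals were wide. At promoters the shares with R1881 were 63 of 121 with the box (52.1%, 43.2 to 60.8) and 69 of 138 without it (50%, 41.8 to 58.2), and these intervals overlapped almost wholly. A SCAN domain, which joins zinc finger proteins into dimers, was found in 17 members, 5 of which had an exon site.

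**Figure D4:**
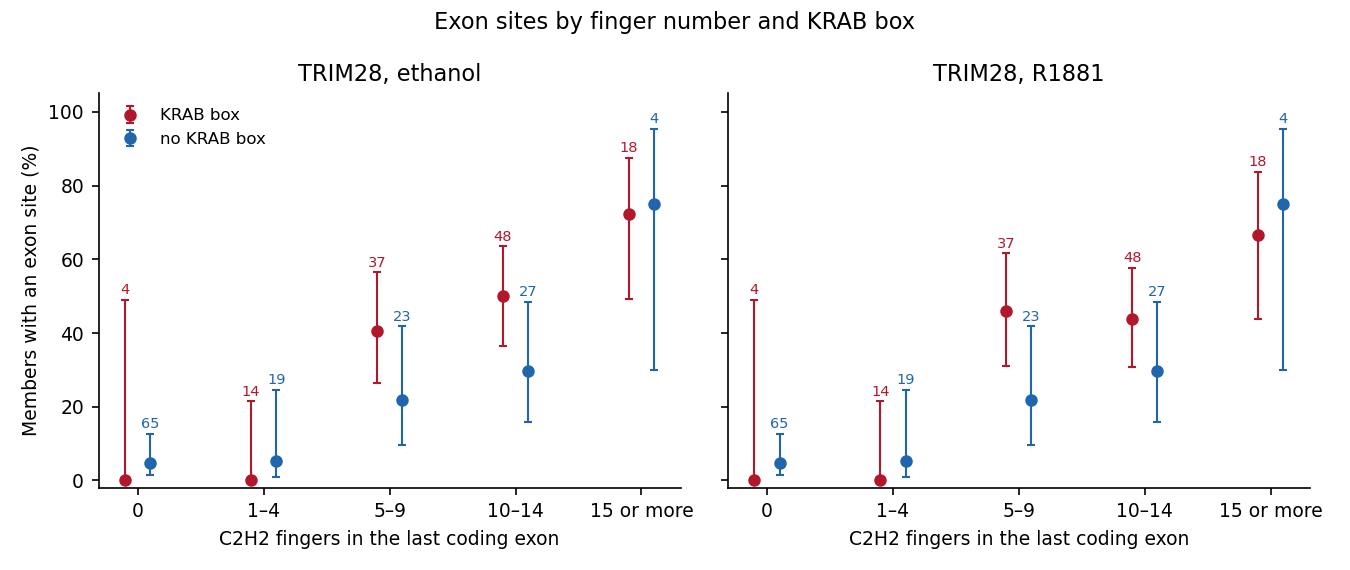
Share of members with a TRIM28 site in the last coding exon (y axis, percent) by the number of C2H2 fingers encoded in that exon (x axis), for members with and without a KRAB box, in ethanol (left) and R1881 (right). Points are shares, whiskers 95% Wilson intervals over genes and the number above each whisker is the number of members; with R1881, 17 of 37 KRAB members with 5 to 9 fingers had a site, against 5 of 23 without the box.

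Some exon sites lie in sequence that has near copies, where reads could have been placed on the wrong member. Of the 83 R1881 sites, 24 had at least 1 other place in GRCh37 with 90% identity over 90% of their length. Most copies were found for ZNF722 (13 places), ZNF141 and ZNF479 (11 each) and ZNF735 (10). At ZNF84 the best copy was identical, and at ZNF721 the strongest site had 5 copies, the best at 98.7% identity. At ZNF286A each of the exon sites had 1 copy, at 97.5% identity for the stronger and 99.4% for the weaker. These and the other sites with copies cannot be assigned to 1 copy with certainty. The other 59 sites, at 49 members, had no such copy, and their median of 11.9 normalized tags was that of all 83. Without sites that have copies, 31 of 121 KRAB members (25.6%) and 18 of 138 others (13.0%) kept a site, a difference of 12.6 points (2.97 to 22.2). Members that lost their site this way stayed in the 121 and 138, counted as without a site. Copies were looked up for called sites alone, so exons with copies could not be left out of both classes. How far the KRAB difference depends on copies is therefore not shown.

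Neighbouring members differed in where TRIM28 sat. Runs in which each gene lay within 100 kb of the next held 117 members, and 42 of these 117 had an R1881 exon site (35.9%, 27.8 to 44.9) against 28 of 142 outside runs (19.7%, 14 to 27). Within KRAB members the shares were 32 of 81 in runs (39.5%, 29.6 to 50.4) and 18 of 40 outside (45.0%, 30.7 to 60.2), which overlapped. Among members without the box they were 10 of 36 in runs (27.8%, 15.8 to 44) and 10 of 102 outside (9.80%, 5.41 to 17.1), which overlapped slightly. In the run chr12:133494892-133791418, 5 of 7 KRAB genes had an exon site, namely ZNF605, ZNF84, ZNF140, ZNF10 and ZNF268, and 1 of the 7 had a promoter site with R1881. ZNF10, the gene of the KOX1 protein whose KRAB box is widely used as a repressor, was among the weakest there, with 6.3 normalized tags in R1881 and 6.4 in ethanol.

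In the run chr5:178286954-178510978 all 4 KRAB genes, ZNF354B, ZNF454, ZNF879 and ZNF354C, had exon sites in both conditions, with ZNF354C highest at 19.0 with R1881 and 15.5 with ethanol. In the run chr4:53180-492945, 4 of 5 genes had exon sites. By contrast, the 6 KRAB genes of chr7:148766733-148994393, ZNF786, ZNF425, ZNF398, ZNF282, ZNF212 and ZNF783, had no exon site in either condition and all 6 had a TRIM28 promoter site with R1881, between 7.7 and 12.6 normalized tags. In chr16:30389427-30635333, 5 of 8 genes had a promoter site and 1, ZNF771, an exon site. Runs were described when they held 4 or more members, and 9 of 11 such runs had an exon site.

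**Figure D5:**
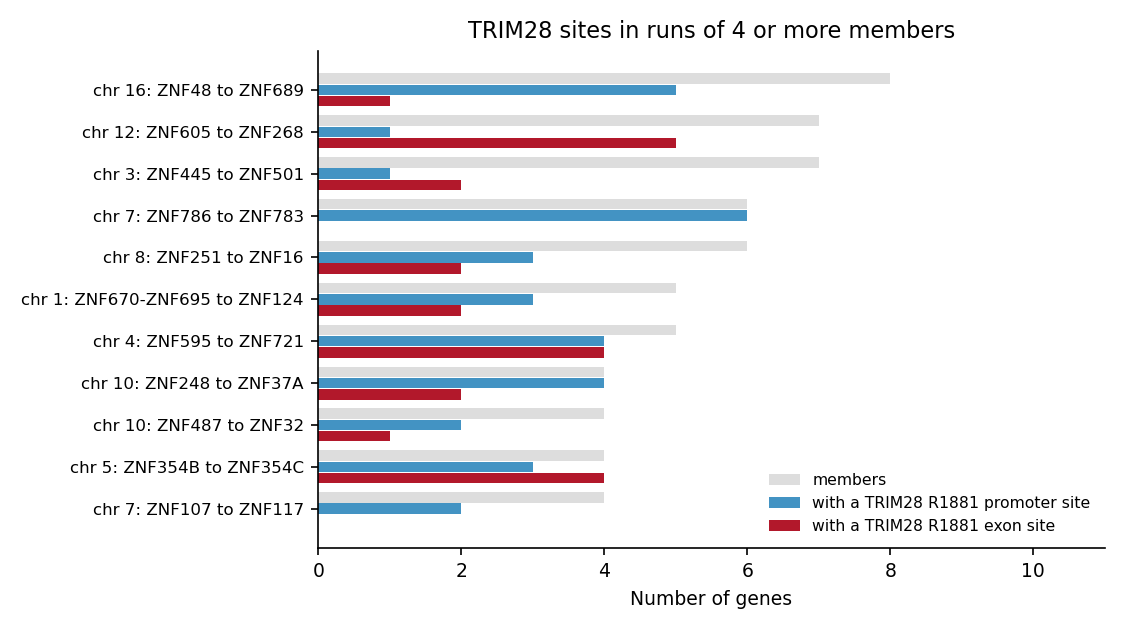
Number of genes (x axis) in each of the 11 runs of 4 or more neighbouring members (y axis, named by chromosome and outermost genes): all members (grey), those with a TRIM28 R1881 promoter site (blue) and those with a TRIM28 R1881 exon site (red). The chromosome 12 run from ZNF605 to ZNF268 had 5 exon and 1 promoter genes, and the chromosome 7 run from ZNF786 to ZNF783 had 0 and 6.

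Promoter sites were about as frequent at members with an exon site as at those without one. Of members with an R1881 exon site, 36 of 70 (51.4%) also had a promoter site outside ZNF exons, compared with 94 of 189 (49.7%) of members without an exon site. The promoter sites lay a median of 140 bp from the nearest TSS with R1881, and 135 of 169 were within 500 bp. Of these 169, 33 (19.5%) were also within 2 kb of the TSS of another gene, so they cannot be assigned to the member alone. TRIM28 promoter sites were found in both conditions at 129 members, at 62 with ethanol alone, and with R1881 alone at 3, ZNF595, ZNF638 and ZNF800. The shared members were 97.7% of those with R1881 and 67.5% of those with ethanol. Among other genes these shares were 92.2% and 61.3%, respectively. When both TRIM28 lists were cut to the same length by normalized tags, 132 members with R1881 and 146 with ethanol had a promoter site.

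Outside ZNF last coding exons, the strongest TRIM28 promoter sites with R1881 were at ZNF76, ZNF34, ZNF670 and ZNF335. ZNF76, a close relative of ZNF143, had 18.3 normalized tags with R1881 and 23.9 with ethanol. ZNF34 had 17.6 and 21.5. ZNF670 had 16.9 and 17.9, with the site shared with the readthrough gene ZNF670-ZNF695. ZNF335, a subunit of a histone methyltransferase complex, had 14.8 with R1881 and 7.6 with ethanol. Of these 4, ZNF335 alone had the lower value with ethanol.

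A promoter site of the chromosome 7 run without exon sites is shown for contrast with the finger code above. It lay at ZNF212, chr7:148936576-148936732 of GRCh37, on the plus strand of the gene, 88 bp upstream of the TSS, with 12.6 normalized tags with R1881 and 9.5 with ethanol. It holds no linker letters, so no letters are in capitals, and its GC content was 65.6%.
ZNF212: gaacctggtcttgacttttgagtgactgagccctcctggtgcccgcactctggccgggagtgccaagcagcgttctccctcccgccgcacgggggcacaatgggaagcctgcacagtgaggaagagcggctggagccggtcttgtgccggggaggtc

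TRIM24 overlap with TRIM28 was counted in exons and at promoters. Over all TRIM28 R1881 sites, 13.6% overlapped a TRIM24 site. None of the 83 exon sites did. This largely restates that TRIM24 had no site in these exons, so it is no separate comparison with that share. At member promoters, 32 of 169 TRIM28 sites (18.9%) overlapped a TRIM24 site. By gene, 54 of 69 members with a TRIM24 promoter site with R1881 (78.3%) also had TRIM28 at the promoter, and 42 of 45 with ethanol (93.3%). Among other genes these shares were 73.2% and 95.5%. By site, 32 of 73 member TRIM24 promoter sites overlapped a TRIM28 site with R1881 (43.8%; all TRIM24 sites 50.1%) and 26 of 43 with ethanol (60.5%; all TRIM24 sites 63.8%), so the member shares were not above those of the whole lists. The whole lists, also that behind the 13.6%, hold sites outside promoters. No such share was counted for promoter sites of other genes, so location and membership are not separated here. TRIM24 member promoter sites lay close to the start, with 71 of 73 within 500 bp of a TSS.

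The TRIM24 promoter members of both conditions overlapped in part. Promoter sites were shared by 26 members, which was 37.7% of the 69 with R1881 and 57.8% of the 45 with ethanol. Among other genes the shares were 31.8% and 55.1%. The larger number with R1881 did not hold when both TRIM24 lists were cut to the same length by normalized tags, which left 37 members with R1881 against 45 with ethanol at promoters, and 34 against 35 in gene bodies. The member TRIM24 promoter sites had a median of 8.5 normalized tags with R1881 (8.5 to 9.3; whole list 9.3) and 10.3 with ethanol (8.6 to 12.1; whole list 10.3). Of 73 promoter sites with R1881, 1 was above the 90th percentile of all TRIM24 sites, 21.0 normalized tags.

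That site was at ZNF839, with 60.5 normalized tags with R1881 and 43.1 with ethanol. After ZNF839, the strongest TRIM24 values with R1881 were at ZNF518B (15.5), ZNF248 and ZNF280D (14 each), and ZNF202 and ZNF746 (13.2 each). ZNF248 also had 9.5 with ethanol and ZNF202 had 12.9, whereas ZNF518B, ZNF280D and ZNF746 had no TRIM24 site with ethanol. ZNF202 is a KRAB and SCAN repressor of lipid metabolism genes. With ethanol, ZNF721 and ZNF736 followed ZNF839 at 14.6 each, and both had 9.3 at their promoters with R1881.

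Of 16 members fixed for their well-known roles, ZNF10, ZNF445 and ZNF711 were the ones with 5 or more fingers in the last coding exon. Besides ZNF10 and ZNF143, which had 7.0 normalized tags in its exon with R1881 and 6.8 with ethanol, none of the 16 had an exon site. ZNF445, a KRAB protein that guards imprinted genes together with TRIM28, had 14 fingers in its last coding exon, and its only sites were TRIM28 sites elsewhere in the gene body, of 7.7 with R1881 and 11.5 with ethanol. ZNF217, an oncogene amplified in breast cancer, had a TRIM28 promoter site of 6.4 with ethanol alone, and ZNF281, a stem cell regulator, one of 5.2 with ethanol alone. ZNF148 had TRIM28 promoter sites of 8.4 and 8.0, and a TRIM24 site of 7.8 with ethanol alone. ZNF703, a breast cancer oncogene without a matched finger, had a TRIM24 promoter site of 7.8 with ethanol alone and no TRIM28 site. ZNF598, a sensor of collided ribosomes, had TRIM28 promoter sites of 7.0 and 6.0. ZNF384, a leukaemia fusion partner, had TRIM24 at 7.0 with R1881 alone and TRIM28 at 4.8 with ethanol alone. ZNF365 had a TRIM28 gene body site of 14.1 with R1881 and 20.7 with ethanol. ZNF24 had TRIM28 at 5.6 and TRIM24 at 8.6, both with ethanol alone. ZNF711 and ZNF521 had no site.

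By chromosome, the share of members with an R1881 exon site was highest on chromosome 9 (8 of 12, 66.7%) and 50% on chromosomes 4, 5 and 17. No member of chromosomes 14, 15, 18 and 22 had one, of 3, 7, 9 and 4 members, respectively. Chromosome 7, with the most members, had 10 of 35 (28.6%). With so few members on most chromosomes, these shares are wide and were not compared with each other.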

How the data were processed

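LNCaP chromatin was crosslinked with 1% formaldehyde, and TRIM28 and HA-TRIM24 ChIP-seq gave 1 peak list per protein and condition. Per the submitters' processing notes, the authors used BWA 0.6.1, HOMER 4.1 and the hg19 build. Per the file headers, each sample was called separately at an FDR of 0.001, with at least 4 times the density of the surrounding 10 kb, a local p-value of 0.0001, at most 1 tag per bp and no input library in the command. The tag minimum was 12 for TRIM28 with ethanol and 9 in the other samples. Some listed sites had values just below it, such as the exon site of ZNF484, with 8 tags with R1881 and 11 with ethanol. The deposited values used were the signal of each site (normalized tags per 10000000 tags) and the ratio of its density over the local region. The deposited score and local p-value were carried along and not compared. Depth is given with the results and sets the weakest site that could be called.

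Genes, transcripts and transcription starts were those of GENCODE release 44 mapped to GRCh37. The last coding exon was the coding part of the last coding exon of the longest coding transcript, and an overlap of at least 1 bp placed a site in it. A site centre within 2 kb of any annotated start of the gene was called a promoter site, and a centre between the gene's ends a gene body site. C2H2 fingers were found by their cysteine and histidine spacing in the translated transcript, and KRAB and SCAN domains by profile models (pyhmmer 0.12.3, E-value at most 0.001) built from 182 and 18 proteins of the same annotation. Near copies were found with blastn 2.17.0. Python 3.11.15, pandas 2.3.3, scipy 1.17.1 and pysam 0.24.0 were used, and the placement of sites was tested on simulated data.

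With 1 sample per condition no test between conditions was run, and intervals are Wilson or Newcombe 95% intervals over genes or sites. Counting intervals of tag ratios are exact. A count of 0 was given the limit of 3 counts. The members, lists and comparisons were chosen with earlier results of these data known. Named genes were the 15 with the strongest TRIM28 R1881 exon sites, the 5 with the strongest TRIM28 R1881 promoter sites outside ZNF last coding exons, the 5 and 3 with the strongest TRIM24 sites with R1881 and ethanol, the 3 highest and 3 lowest condition ratios, the 5 with most fingers and no exon site, and 16 genes of known role. Ties at the end of a list are named. Alternatives varied exon and promoter definitions, site strength, local fold and list length.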

Additional observations from a re-analysis of the deposited data

Results flagged for a closer look

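The number of members with a site moved in opposite directions for the 2 proteins between conditions. At promoters the log2 ratio of member numbers, R1881 over ethanol, was 0.62 for TRIM24 (69 against 45 members) and -0.53 for TRIM28 (132 against 191). In gene bodies it was 0.78 for TRIM24 (60 against 35) and -0.20 for TRIM28 (174 against 200). With 1 sample for each protein and condition, this difference was not tested. The list lengths moved the same way, 9363 against 5232 TRIM24 sites and 34574 against 58201 TRIM28 sites. So did the numbers over all protein-coding genes. At promoters these were 3710 against 2135 genes for TRIM24 and 7539 against 11358 for TRIM28. In gene bodies they were 4062 against 2160 and 8869 against 11956, so the shift was not particular to members. With lists of equal length, TRIM24 had 37 promoter members with R1881 and 45 with ethanol, and TRIM28 had 132 and 146.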

How the results depend on the processing

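Of 87 alternative settings over 15 results, 67 left the value within 1.5 times or its interval, 20 moved it and 0 reversed a sign. With at least 10 normalized tags, TRIM28 exon members numbered 46 with R1881 and 40 with ethanol, promoter members 30 and 43, and gene body members 78 and 72, and TRIM24 had 24 and 24 promoter members and 24 and 14 gene body members. With at least 8 times the local density, TRIM28 with ethanol had 87 promoter and 125 gene body members. Gene bodies without the last coding exon and promoters left 67 and 77 members for TRIM28 and 13 and 4 for TRIM24, with R1881 and ethanol, respectively. With the last coding exon of any coding transcript, TRIM24 with R1881 had 2 exon members in place of 0. With lists of equal length, TRIM24 with R1881 had 37 promoter and 34 gene body members, below the 45 and 35 with ethanol, and TRIM28 with ethanol had 62 exon, 146 promoter and 173 gene body members. Without sites that have near copies, an alternative chosen after seeing the data, the KRAB difference was 12.6 percentage points in place of 26.8. Members that lost a site in this alternative were counted as without one. The causes of these changes were not tested.

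No paired analysis was possible because each protein and condition had 1 sample. Weak sites near the tag minimum can be missed in the shallower samples, no input library was used in the calls, and conditions cannot be told apart from samples. Peaks in repeated finger sequence depend on how reads with several matches were placed, which is not given in the sources used here.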
